A study of Homo sapiens with 12 samples.

Results

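Fibronectin (FN1), the forkhead factor FOXF2 and the epithelial genes OCLN, CGNL1 and FXYD3 were followed across 12 expression arrays of Ishikawa cells, a human endometrial adenocarcinoma line. They are 5 of the 14884 genes that could be named on the array, and they were selected on their log2 levels and group differences on these same arrays. Of each gene's probe sets the brightest on average was to be read, and each of the 5 had only 1 named probe set. The arrays fall into 4 labelled groups of 3, which are shMOF ERα(+), shMOF ERα(-), control ERα(+) and control ERα(-). All groups are the same cell line, and shMOF names cells in which MOF, the histone acetyltransferase encoded by KAT8, was targeted by a short hairpin RNA. The hairpin's sequence, the treatment or construct behind ERα(+) and ERα(-), and whether replicates were separate cultures are not stated in the labels. P-values thus reflect only how far these arrays differ from one another, which may be technical. The question followed here is how the levels of a matrix gene, a mesenchymal transcription factor and epithelial surface genes are arranged over the 4 groups, and whether the matrix and junction genes lie in opposite directions.

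Fibronectin, encoded by FN1, is a secreted glycoprotein of the extracellular matrix that cells bind through integrins and syndecans. Epithelial cells are sealed to each other by tight junctions, in which occludin (OCLN) is a membrane-spanning strand protein and paracingulin (CGNL1) a cytoplasmic adaptor that also sits at adherens junctions. When epithelial cells take on mesenchymal features, fibronectin is classically gained and junction proteins are lost, and factors of the ZEB and SNAI families bind E-boxes in promoters of epithelial genes. FOXF2 is a forkhead transcription factor known from the mesenchyme of the mouse gut and palate. FXYD3 is a small membrane protein of epithelia that regulates the sodium pump, so it belongs to epithelial cells but not to their junctions.

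All 5 genes matched an entry of RefSeq, whose GRCh38.p14 annotation places FN1 at chr2:215360865-215436068, FOXF2 at chr6:1389576-1395603, OCLN at chr5:69492547-69558104, CGNL1 at chr15:57376505-57550717 and FXYD3 at chr19:35115823-35124324. The 250 bases before the annotated start were read for each gene from RefSeq (GRCh38.p14) and searched on both strands for the E-box CAGGTG and for the full oestrogen response element, GGTCA followed after 3 bases by TGACC. Of 35116 such windows over all genes, 17.5% hold the E-box and 0.0399% the oestrogen response element. The windows of FN1 (chr2:215436069-215436318, minus strand), FOXF2 (chr6:1389326-1389575, plus strand) and OCLN (chr5:69492297-69492546, plus strand) are shown because these are the matrix gene, the transcription factor and the junction gene that the levels below turn on. Capitals mark the E-box.
FN1: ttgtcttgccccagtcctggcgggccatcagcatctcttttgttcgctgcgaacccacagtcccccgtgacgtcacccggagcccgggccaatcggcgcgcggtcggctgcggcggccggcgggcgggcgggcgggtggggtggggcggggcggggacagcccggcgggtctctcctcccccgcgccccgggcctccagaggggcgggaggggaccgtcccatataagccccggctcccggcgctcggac
FOXF2: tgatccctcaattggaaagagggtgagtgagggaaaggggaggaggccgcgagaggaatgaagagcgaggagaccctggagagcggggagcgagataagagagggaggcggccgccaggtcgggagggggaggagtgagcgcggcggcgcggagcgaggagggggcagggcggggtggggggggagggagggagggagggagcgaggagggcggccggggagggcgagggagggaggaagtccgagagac
OCLN: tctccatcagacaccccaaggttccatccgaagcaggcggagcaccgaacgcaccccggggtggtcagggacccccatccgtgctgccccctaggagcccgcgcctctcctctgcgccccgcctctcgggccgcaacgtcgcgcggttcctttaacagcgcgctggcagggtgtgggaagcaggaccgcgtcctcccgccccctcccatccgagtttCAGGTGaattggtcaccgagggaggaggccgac
In the OCLN window the first base of the E-box lay 33 bases before the start. RefSeq gives OCLN a second start, and the window before it (chr5:69492540-69492789, plus strand), nearly all of which lies downstream of the first, also holds the E-box, 133 bases before that start. These letters occurred in none of the windows of FN1, FOXF2, CGNL1 and FXYD3, and the full oestrogen response element occurred in none of the 5 genes' windows. The single arm GGTCA of that element, which 32.6% of all windows hold on either strand, occurred at 188 and 23 bases before the start in the printed OCLN window, and in no other window of the 5 genes. The window of FXYD3 (chr19:35117750-35117999, plus strand) precedes an alternative start inside the gene. GC made up 76.4% of the bases for FN1, 70.8% for FOXF2, 68.8% for OCLN, 80.4% for CGNL1 and 53.6% for FXYD3, against a median of 58.0% over all windows. A match or its absence describes these letters only.

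The labels were checked first. KAT8 averaged 6.78 ± 0.21 in shMOF ERα(+) and 6.75 ± 0.03 in shMOF ERα(-), against 6.74 ± 0.12 in control ERα(+), with 6.77 ± 0.10 in control ERα(-) (log2 signal, SD, n = 3 each), so a lower KAT8 level was not detectable on the arrays labelled shMOF. Whether this probe set can show the effect of the hairpin is not known here. ESR1, which encodes ERα, averaged 4.27 ± 0.01 in shMOF ERα(+) against 4.42 ± 0.09 in shMOF ERα(-), and 4.46 ± 0.17 in control ERα(+) against 4.28 ± 0.15 in control ERα(-). Its groups overlapped in control arrays. On shMOF arrays the ERα(+) group was the lower one without overlap, where 9.51% of all genes had none. That gap was narrow, from 4.28 to 4.34, with a difference of -0.15 ± 0.12 (SE). ESR1 was dim, with a mean of 4.36 at percentile 27.1 of all genes. Whether its probe set can show the state named by the ERα labels is not known here. The RNA levels of both genes thus do not follow the labels throughout, and each direction below goes by the labels as given. Whether any array carries a wrong label could not be tested from these values, and it bears on replicate 2 of shMOF ERα(-), which stands apart from its group in FN1. Over the 53617 probe sets, the arrays had medians of 4.53 to 4.59. Pairs of arrays correlated at 0.965 to 0.994 across genes, and only 3 of the 12 arrays had their closest partner in their own group. Of the endometrial epithelial markers, 7 of 8 measured genes lay above the median level of 5.66. Of the fibroblast and stromal markers 1 of 4 did, DES at 5.91, with THY1 at 4.94, LUM at 2.20 and DCN at 2.06. Among endothelial and immune markers 1 of 7 did, CD68 at 7.03. RMA levels of different probe sets depend on the probes, so this is a coarse check.

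Fibronectin split the 12 arrays into 6 low and 6 high ones, and the control groups followed that split while the shMOF groups did not. FN1 stood at 7.95, 6.71 and 6.75 in shMOF ERα(+), at 8.34, 6.14 and 8.34 in shMOF ERα(-), at 7.53, 8.16 and 8.27 in control ERα(+), with 6.51, 6.60 and 6.38 in control ERα(-) (log2 signal, replicates 1, 2 and 3 in that order, as for each gene below). No array lay between 6.75 and 7.53, the widest gap in the order of the arrays. All 3 control ERα(+) arrays and all 3 control ERα(-) arrays lay on 1 side each, high and low, while both shMOF groups had arrays on both sides. Replicate 2 of shMOF ERα(-) was the lowest of all 12, and the other arrays of that group were the highest.

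From the lowest array to the highest, FN1 spanned 4.58-fold. Its SD over the 12 arrays ranked 13th and its SD within groups (0.75) ranked 21st among the 14884 genes, against a median within-group SD of 0.19. In order of the group means, control ERα(+) had 7.98 ± 0.40, shMOF ERα(-) 7.61 ± 1.27, shMOF ERα(+) 7.14 ± 0.70 and control ERα(-) 6.50 ± 0.11. The first 3 of these overlapped with their neighbours, and control ERα(-) lay below shMOF ERα(+) without overlap.

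FOXF2 was highest on 3 of the 6 arrays with high fibronectin. Its level was 6.20, 6.003 and 5.99 in shMOF ERα(+), 6.96, 5.93 and 6.997 in shMOF ERα(-), 6.26, 6.97 and 6.47 in control ERα(+), with 5.95, 6.08 and 5.85 in control ERα(-). The 3 arrays near 7, namely replicates 1 and 3 of shMOF ERα(-) and replicate 2 of control ERα(+), were 0.50 above the next array. The group means were 6.63 ± 0.60 in shMOF ERα(-), 6.57 ± 0.36 in control ERα(+), 6.07 ± 0.12 in shMOF ERα(+) and 5.96 ± 0.12 in control ERα(-). Within each pair of neighbours the arrays overlapped, except between control ERα(+) and shMOF ERα(+).

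Occludin ran the other way and within a narrower range, 1.97-fold from lowest to highest. OCLN measured 8.07, 8.50 and 8.19 in shMOF ERα(+), 7.90, 8.27 and 7.97 in shMOF ERα(-), 7.94, 7.87 and 7.56 in control ERα(+), with 8.54, 8.33 and 8.27 in control ERα(-). The 6 arrays with low fibronectin were the 6 with the highest occludin. Control ERα(-) averaged 8.38 ± 0.14, shMOF ERα(+) 8.26 ± 0.22, shMOF ERα(-) 8.05 ± 0.20 and control ERα(+) 7.79 ± 0.20, and each group overlapped with its neighbours in this order. RefSeq also annotates OCLNP1, a transcribed pseudogene of occludin on the same chromosome, and whether the OCLN probes detect it is not known here.

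The second junction gene did not share occludin's arrangement. CGNL1 stood at 6.52, 6.19 and 6.34 in shMOF ERα(+), at 6.59, 6.50 and 6.50 in shMOF ERα(-), at 6.56, 6.41 and 6.42 in control ERα(+), with 5.995, 5.92 and 6.34 in control ERα(-). Replicates 1 and 2 of control ERα(-) were the lowest arrays, and the other 10 lay between 6.19 and 6.59. The means were 6.53 ± 0.05 in shMOF ERα(-), 6.46 ± 0.09 in control ERα(+), 6.35 ± 0.16 in shMOF ERα(+) and 6.09 ± 0.22 in control ERα(-), with overlap between all neighbours. Its 1.58-fold range was the smallest of the 5 genes, and its SD over the arrays (0.22) was close to the median of all genes (0.20).

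FXYD3, the sodium pump regulator, ranged 2.86-fold. It measured 5.91, 4.97 and 5.03 in shMOF ERα(+), 5.83, 5.41 and 5.72 in shMOF ERα(-), 6.28, 5.59 and 6.41 in control ERα(+), with 5.53, 4.89 and 5.46 in control ERα(-). Replicates 1 and 3 of control ERα(+) were the highest, and replicate 2 of control ERα(-) was the lowest, with replicates 2 and 3 of shMOF ERα(+) just above it. Control ERα(+) averaged 6.09 ± 0.44, shMOF ERα(-) 5.65 ± 0.22, shMOF ERα(+) 5.31 ± 0.53 and control ERα(-) 5.29 ± 0.35, again with overlap between neighbours. Differences between the 4 group means made up 45.0% of the variance over arrays for FN1, 50.2% for FOXF2 and 49.8% for FXYD3, against 66.5% for OCLN and 66.6% for CGNL1.

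**Figure D1:**
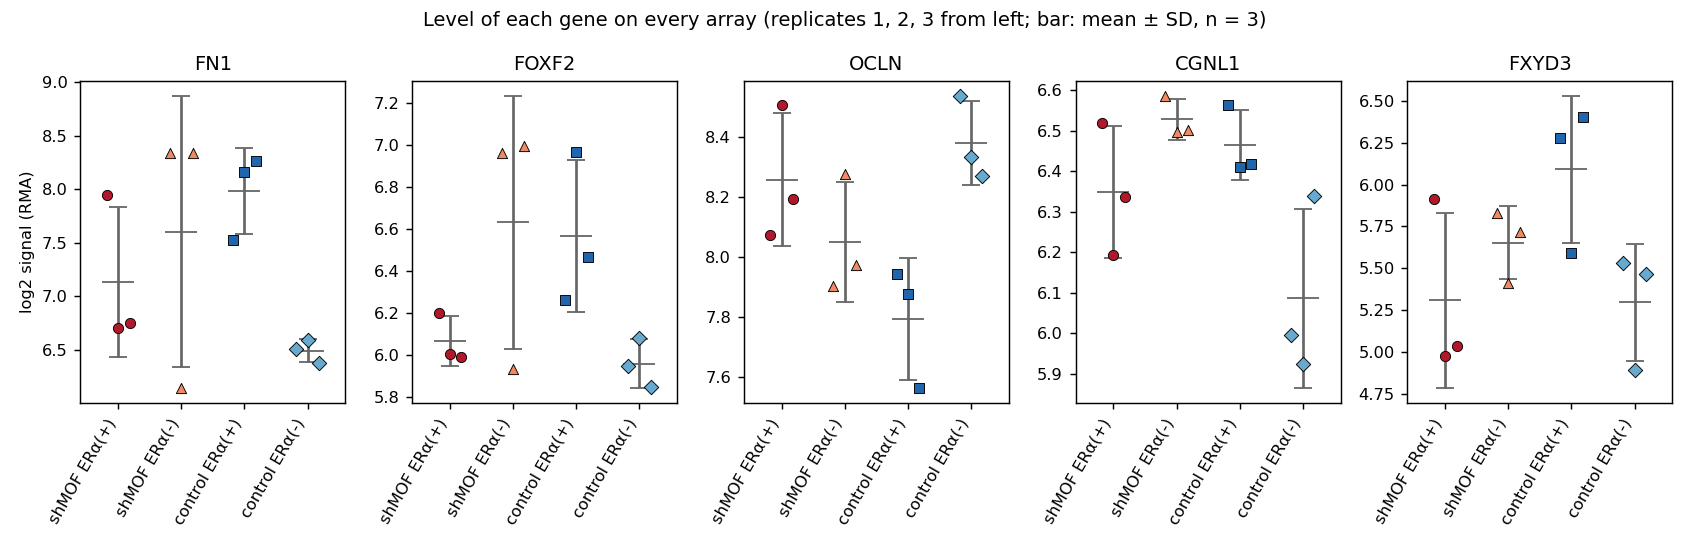
Level of each gene (log2 signal after RMA, each panel with its own axis range) on the 3 arrays of each of the 4 groups, with replicates from left to right and bars for the mean ± SD. The fibronectin arrays of shMOF ERα(-) sit at 8.34, 6.14 and 8.34, and those of control ERα(-) lie between 6.38 and 6.60.

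Group differences were estimated with limma over all 14884 genes, and 0 genes in any of the 5 comparisons passed an adjusted p of 0.05 (Benjamini-Hochberg, percent called 0 in each). The number of genes at an unadjusted p below 0.05 was 711 for shMOF against control in ERα(-), 2787 for shMOF against control in ERα(+), 1894 for ERα(+) against ERα(-) in control, 793 for ERα(+) against ERα(-) in shMOF and 2685 for the interaction. The differences of the 5 genes below are therefore a description. Each comparison shares arrays with some of the others, and all share a pooled estimate of the spread. Those of shMOF against control in ERα(-) and in ERα(+) have no array in common. The same holds for ERα(+) against ERα(-) in control and in shMOF. The values of the comparisons stand side by side and do not support each other. In cells measured in bulk, fewer cells that express a gene and less RNA per cell cannot be told apart.

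In ERα(-), the means of FN1, FOXF2, CGNL1 and FXYD3 were higher and that of OCLN lower on the arrays labelled shMOF than on control arrays. FN1 was higher by 1.11 ± 0.48 on the log2 scale (SE, 95% interval 0.07 to 2.14), or 2.16-fold, and FOXF2 by 0.67 ± 0.25 (0.14 to 1.20). The difference of OCLN was -0.33 ± 0.15 (-0.66 to 0.003), that of CGNL1 0.44 ± 0.13 (0.16 to 0.73) and that of FXYD3 0.36 ± 0.27 (-0.22 to 0.93). CGNL1 alone had no overlap between the groups, 1 of the 5 genes, where 8.76% of all genes had none. The limma adjusted p was 0.953 for each of the 5. Single arrays moved these values: FN1 and FOXF2 were at 1.84 and 1.02 without replicate 2 of shMOF ERα(-), and FXYD3 differed by 0.15 without replicate 2 of control ERα(-). Without replicate 1 or replicate 3 of shMOF ERα(-), FN1 was at 0.74 in each case and FOXF2 at 0.51 and 0.49.

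In ERα(+) the signs of all 5 were turned. FN1 differed by -0.85 ± 0.48 (95% interval -1.88 to 0.19), FOXF2 by -0.50 ± 0.25 (-1.03 to 0.03) and FXYD3 by -0.79 ± 0.27 (-1.36 to -0.21). OCLN was higher on shMOF arrays by 0.47 ± 0.15 (0.13 to 0.80), and CGNL1 differed by -0.11 ± 0.13 (-0.40 to 0.17). FOXF2 and OCLN had no overlap between groups, 2 of 5 genes, where 26.2% of all genes had none. The limma adjusted p lay between 0.223 and 0.650. Leaving out replicate 2 of control ERα(+) left a FOXF2 difference of -0.30, and the CGNL1 difference ran from -0.20 without replicate 1 of shMOF ERα(+) to -0.04 without replicate 2.

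Between control ERα(+) and control ERα(-) all 5 genes had no overlap, where 19.3% of all genes had none. The 5 were selected on their group differences on these arrays, so this count and the rank of FN1 below depend on that choice. FN1 was higher in ERα(+) by 1.49 ± 0.48 (95% interval 0.45 to 2.52), or 2.81-fold. FOXF2 was higher by 0.61 ± 0.25 (0.08 to 1.14), CGNL1 by 0.38 ± 0.13 (0.09 to 0.66) and FXYD3 by 0.80 ± 0.27 (0.22 to 1.37). OCLN was lower, at -0.59 ± 0.15 (-0.92 to -0.25). Adjusted p-values from limma lay between 0.333 and 0.358. When only these 6 arrays were fitted, the adjusted p of FN1 was 0.0330. By the size of the difference FN1 ranked 7th of 14884 genes both here and for shMOF against control in ERα(-).

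On shMOF arrays, 0 of the 5 genes separated ERα(+) from ERα(-), where 9.51% of all genes did. The differences were -0.47 ± 0.48 for FN1 (95% interval -1.50 to 0.57), -0.57 ± 0.25 for FOXF2 (-1.10 to -0.04), 0.21 ± 0.15 for OCLN (-0.12 to 0.54), -0.18 ± 0.13 for CGNL1 (-0.46 to 0.11) and -0.34 ± 0.27 for FXYD3 (-0.92 to 0.23), with limma adjusted p from 0.746 to 0.774. For FN1 this value rested on single arrays, at -1.20 without replicate 2 and -0.10 without replicate 1 of shMOF ERα(-). Values of FOXF2 and FXYD3 moved by over 1.5 times as well, with FOXF2 at -0.91 without replicate 2 of shMOF ERα(-) and FXYD3 at -0.65 without replicate 1 and -0.18 without replicate 2 of shMOF ERα(+). CGNL1 was at -0.10 and OCLN at 0.08 without replicate 2 of shMOF ERα(+), and OCLN at 0.32 without replicate 2 of shMOF ERα(-).

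The interaction subtracts the shMOF difference in ERα(-) from the one in ERα(+), and it was negative for 4 genes and positive for occludin. It was -1.96 ± 0.68 for FN1 (95% interval -3.42 to -0.49), -1.17 ± 0.35 for FOXF2 (-1.92 to -0.42), 0.79 ± 0.22 for OCLN (0.32 to 1.26), -0.56 ± 0.19 for CGNL1 (-0.96 to -0.15) and -1.14 ± 0.38 for FXYD3 (-1.96 to -0.33). The limma adjusted p lay between 0.219 and 0.223. Without replicate 2 of shMOF ERα(-), 570 genes were called, among them FN1 at -2.69 (adjusted p = 0.0109), FOXF2 at -1.52 (adjusted p = 0.0110) and OCLN at 0.91 (adjusted p = 0.0426). That array is the one that stood apart from its group in FN1, and the genes were selected on such differences. These adjusted p-values are therefore a description only. Without replicate 1 or replicate 3 of shMOF ERα(-), 0 genes were called. FN1 was then at -1.59 in each case (limma adjusted p = 0.471 and 0.398), and FOXF2 at -1.01 and -0.99.

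**Figure D2:**
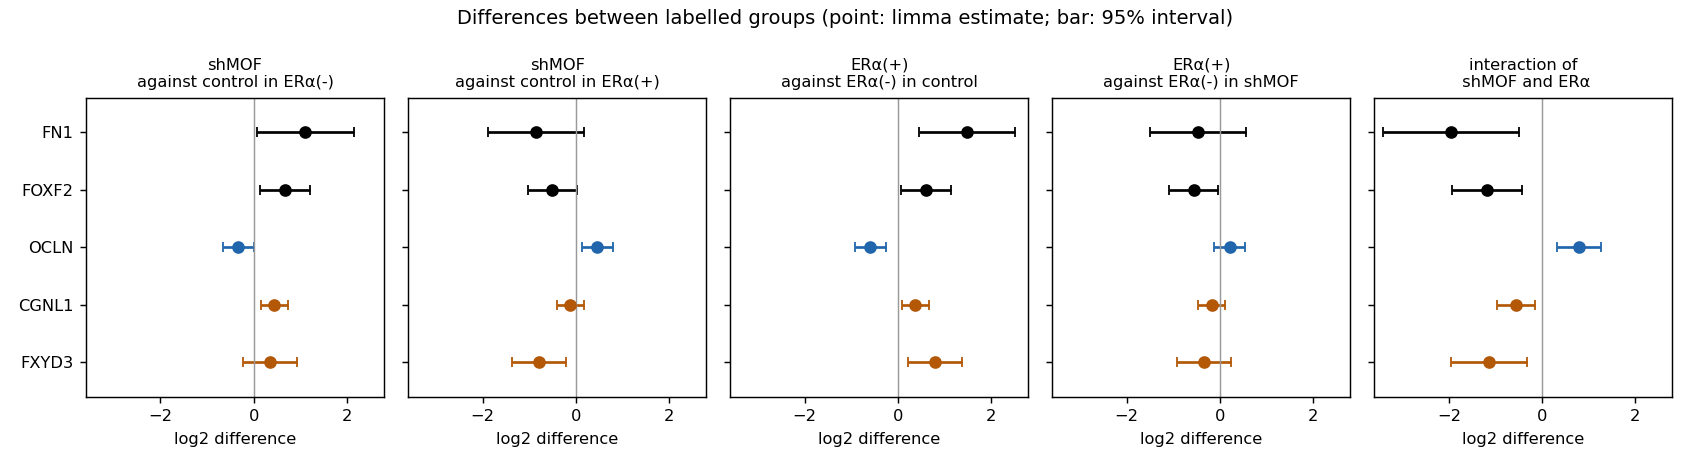
Differences of the 5 genes in the 5 comparisons, as limma estimates on the log2 scale with 95% intervals; black marks FN1 and FOXF2, blue OCLN and orange CGNL1 and FXYD3. OCLN lies on the other side of 0 from the remaining 4 genes in every panel.

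Matrix and junction genes lay in opposite directions for fibronectin and occludin, but not for fibronectin and CGNL1. In the means of all 4 comparisons of groups, OCLN had the opposite sign from FN1, and CGNL1, FXYD3 and FOXF2 had the same sign. The genes were selected on such differences, so these signs are a description. They are also not separate observations, because all 4 comparisons use the same group means. Those of OCLN were in the reverse order of those of FN1, which fixes each sign. The order of arrays within a group can be read over 12 pairs of arrays, 3 in each group, as a description only, since the pairs of a group share arrays. FN1 and OCLN were ordered oppositely in 10 of the 12 pairs, which were all 9 pairs outside control ERα(-) and 1 of 3 within it. Of the 12 pairs, 4 set an array of the low against one of the high fibronectin arrays and so restate that split, with all 4 opposed, and 6 of the other 8 were opposed. Among these 6, FN1 was nearly tied in replicates 1 and 3 of shMOF ERα(-), at 8.337 and 8.335. It was also close in replicates 2 and 3 of shMOF ERα(+), at 6.71 and 6.75. FN1 and CGNL1 were opposed in 5 pairs, FN1 and FXYD3 in 3, and FN1 and FOXF2 in 3. The 2 junction genes were themselves opposed in 9 pairs, OCLN and FXYD3 in 9, and CGNL1 and FXYD3 in 2. FOXF2 was opposed to OCLN in 7, to CGNL1 in 8 and to FXYD3 in 6.

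The widest gap in FN1, from 6.75 to 7.53, parts the arrays into a low and a high set. For that reason no correlation over all 12 is given for pairs of the 5 genes. Whether the sets are distinct clusters was not tested, and the widest gaps of FOXF2, OCLN, CGNL1 and FXYD3 parted the arrays otherwise. The low set holds 2 arrays of shMOF ERα(+), 1 of shMOF ERα(-) and 3 of control ERα(-), and the high set 1, 2 and 3 of shMOF ERα(+), shMOF ERα(-) and control ERα(+). Within the low set FN1 and OCLN had r = 0.18 (exact permutation p = 0.760, two-sided, n = 6, rho = -0.09 with p = 0.919), and within the high set r = -0.33 (exact permutation p = 0.450, n = 6, rho = -0.26 with p = 0.658). FN1 and FOXF2 had r = 0.57 in the low set (exact permutation p = 0.250, n = 6, rho = 0.71 with p = 0.136) and 0.74 in the high set (exact permutation p = 0.0597, n = 6, rho = 0.66 with p = 0.175). Without the 2 arrays farthest from the median, the high-set value of FN1 and FOXF2 was 0.10, so it rested on those arrays. The FN1 and OCLN values then were 0.54 and 0.24. Over all 20 relations of the 5 genes r ran from -0.84 to 0.74, 1 had a permutation p below 0.05 and the lowest adjusted p was 0.5. That 1 relation was between FOXF2 and FXYD3 in the low set, with r = -0.84 (exact permutation p = 0.025, n = 6, rho = -0.83 with p = 0.0583). Because the sets were split on FN1 itself, the low set kept only levels from 6.14 to 6.75 and the high set those from 7.53 to 8.34. These correlations therefore do not settle whether fibronectin and occludin run in opposite directions.

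**Figure D3:**
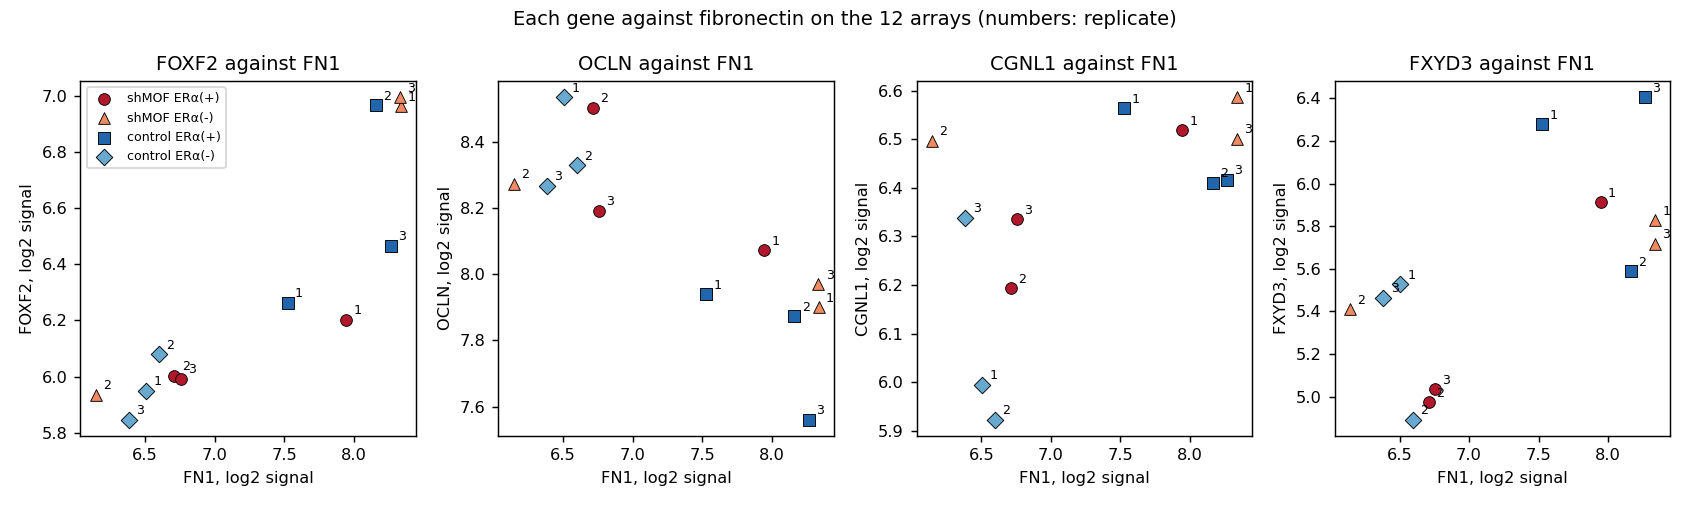
Level of FOXF2, OCLN, CGNL1 and FXYD3 against that of FN1 (both log2 signal) on each of the 12 arrays, with symbols for the 4 groups and digits for the replicate. The 6 arrays with FN1 of at most 6.75 hold OCLN between 8.19 and 8.54, and the 6 with FN1 of at least 7.53 hold OCLN between 7.56 and 8.07.

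A wide axis of variation ran through the same arrays. The first principal component of the 14884 genes held 36.8% of the variance, with replicate 2 of shMOF ERα(+) at one end (0.51) and replicate 3 of control ERα(+) at the other (-0.57). OCLN was 8.50 on that shMOF array and at its lowest, 7.56, on that control array. Every array with low fibronectin had a positive value on this component, from 0.06 to 0.51. Those with high fibronectin had negative values, except replicate 1 of shMOF ERα(+) at 0.08. The split in fibronectin thus largely followed the sign of this component. The part of this component in the differences above was not tested. The mean over the 4 measured fibroblast and stromal markers ranged from 3.59 to 3.77 in shMOF ERα(+), 3.81 to 3.88 in shMOF ERα(-), 3.75 to 3.82 in control ERα(+) and 3.77 to 3.80 in control ERα(-). The mean over 8 endometrial epithelial markers lay between 8.18 and 8.48 in shMOF ERα(+), 8.26 and 8.67 in shMOF ERα(-), 8.59 and 8.77 in control ERα(+), and 8.23 and 8.48 in control ERα(-). These keratins and other epithelial markers were higher in control ERα(+) than in control ERα(-) for 7 of 8 genes (median 0.34, all genes -0.002), on the same side as FN1. Their part in the result was not tested.

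Other genes of the same compartments were read from lists, of which 0 members were called in any comparison. For the extracellular matrix, 17 of 43 listed genes were measured, and for ERα(+) against ERα(-) in control 12 were higher and 5 lower, with a median of 0.19 against -0.002 over all genes. TIMP1, an inhibitor of matrix metalloproteinases, was higher by 0.85 ± 0.30 and TIMP3 by 0.44 ± 0.15, whereas the basement membrane protein nidogen (NID1) differed by -0.56 ± 0.15. For shMOF against control in ERα(+), 5 matrix genes were higher and 12 lower, with a median of -0.30 against -0.04 over all genes. There TIMP1 differed by -0.998 ± 0.30 and thrombospondin (THBS1) by -0.70 ± 0.26. In ERα(-), 10 were higher on shMOF arrays and 7 lower (median 0.15), with the matricellular protein CCN2 at -0.51 ± 0.15, NID1 at -0.49 ± 0.15 and TIMP3 at 0.42 ± 0.15. The matrix list thus held genes on both sides of 0, and FN1 had the highest difference of its 17 measured genes in both ERα(+) against ERα(-) in control and shMOF against control in ERα(-). FN1 was selected on such differences, so its place in the list depends on that choice. Collagens, laminins and integrins were not analysed here, because their probe sets were not named.

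The tight junction list, with 27 of 32 genes measured, lay near the median of all genes. In control, ERα(+) exceeded ERα(-) for 12 genes and was below it for 15, with a median of -0.05 against -0.002 over all genes. Occludin was the lowest of the 27, and MARVELD1 (0.52 ± 0.15), which shares the MARVEL domain with occludin, was the highest, with the scaffold TJP3 at 0.39 ± 0.16. Because occludin was selected on such differences, its place at either end of the list depends on that choice. Between shMOF and control in ERα(+), 11 were higher and 16 lower (median -0.07 against -0.04). Occludin was here the highest, with CLDN12, a claudin, at 0.36 ± 0.15, and the tricellular junction protein LSR at -0.52 ± 0.18 and TJP3 at -0.48 ± 0.16 on the other side. Scaffold TJP3 and occludin therefore stood on opposite sides, as did CGNL1 and occludin. In ERα(-) 11 were higher and 16 lower (median -0.03), with TJP3 at 0.31 ± 0.16.

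Adherens junction and desmosome genes, 12 of 18 measured, had a median of 0.22 for ERα(+) against ERα(-) in control, where 7 were higher and 5 lower. Plakoglobin (JUP), which links cadherins to the cytoskeleton, was higher by 0.44 ± 0.16, and the adhesion receptors NECTIN4 and NECTIN2 by 0.46 ± 0.18 and 0.38 ± 0.16, while NECTIN3 differed by -0.48 ± 0.19. For shMOF against control in ERα(+), 6 were higher and 6 lower, with JUP at -0.55 ± 0.16, NECTIN2 at -0.44 ± 0.16, NECTIN4 at -0.42 ± 0.18 and NECTIN3 at 0.47 ± 0.19. JUP and 2 nectins were thus on the side of FN1 in both comparisons, and NECTIN3 on that of OCLN. Of 11 measured genes of epithelial identity, FXYD3 included, 5 were higher and 6 lower for ERα(+) against ERα(-) in control (median -0.13), with the protease ST14 at 0.51 ± 0.22, the transcription factor OVOL2 at 0.36 ± 0.15 and the surface protein CD24 at -0.53 ± 0.22.

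Transition factors and mesenchymal markers, 13 of 16 measured, lay on both sides of 0. For ERα(+) against ERα(-) in control 5 were higher and 8 lower (median -0.09), with TCF3 at 0.28 ± 0.13 and PRRX1 at -0.29 ± 0.12, both transcription factors. For shMOF against control in ERα(+) 7 were higher and 6 lower (median 0.03), with TCF3 at -0.32 ± 0.13. Vimentin (VIM) averaged 4.88 in shMOF ERα(+), 5.04 in shMOF ERα(-), 5.02 in control ERα(+), with 5.16 in control ERα(-). ZEB1 had 4.46, 4.59, 4.24 and 4.32 in the same order of groups. E-cadherin and N-cadherin were not analysed here.

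**Figure D4:**
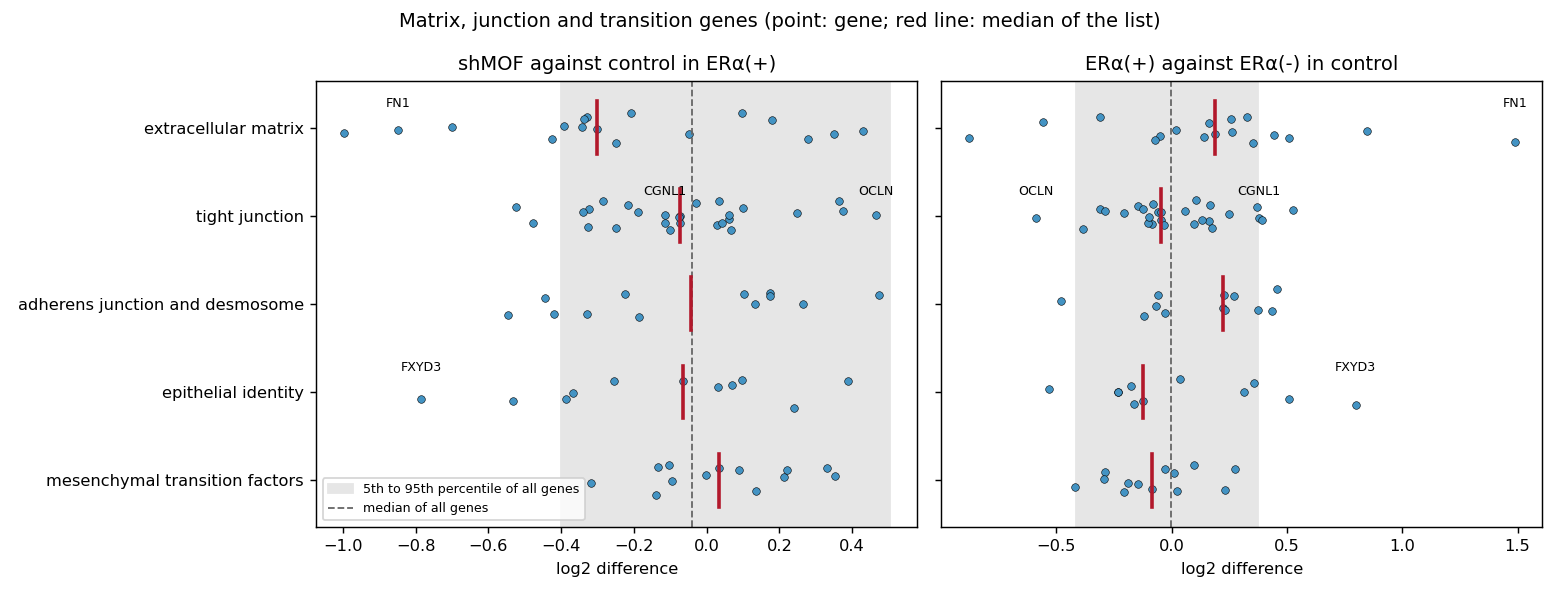
Log2 differences of the measured genes of 5 lists for shMOF against control in ERα(+) (left) and ERα(+) against ERα(-) in control (right), with the list median in red and the middle 90% of all genes in grey. The tight junction medians are -0.07 and -0.05 and the matrix medians -0.30 and 0.19, with FN1, OCLN, CGNL1 and FXYD3 named.

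Relatives of FOXF2 and FXYD3 were read in the same way. Among 24 measured forkhead factors, 13 were higher and 11 lower for ERα(+) against ERα(-) in control (median 0.02), with FOXO3 at -0.57 ± 0.16, FOXN2 at -0.47 ± 0.16, FOXP4 at 0.44 ± 0.16 and FOXA2 at 0.43 ± 0.16. Of the FXYD family and sodium pump list 6 of 14 were measured. FXYD5, dysadherin, a relative of FXYD3 known to weaken cell adhesion, was higher in ERα(+) by 1.10 ± 0.35 in control. It differed by -0.94 ± 0.35 for shMOF against control in ERα(+) and by 0.85 ± 0.35 in ERα(-), with the same signs as FXYD3 in each. The TGF-beta pathway, which in many cells raises fibronectin, had 6 genes higher and 6 lower of 12 measured for ERα(+) against ERα(-) in control (median -0.07). Its signal carrier SMAD3 was higher there by 0.62 ± 0.20, whereas SMAD6 differed by -0.58 ± 0.30, SKIL by -0.41 ± 0.20 and SMAD4 by -0.24 ± 0.13. For shMOF against control in ERα(+), 6 were again higher and 6 lower, with SMAD3 at -0.85 ± 0.20 and SMAD5 at 0.38 ± 0.14. Of the fibronectin receptors 3 of 14 were measured, and the syndecans SDC1 and SDC2 lay at 0.38 ± 0.19 and -0.59 ± 0.24 for ERα(+) against ERα(-) in control.

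The genes whose levels over the 12 arrays were most like those of each of the 5 were sought among the 7441 others (7442 for FXYD3) with a mean at or above the median, by Pearson's r as a description. All these values come from the same 12 arrays, which fall into the 2 fibronectin sets. For FN1 the highest were SLC71A2 (0.98), RALB (0.95), a small GTPase, NYNRIN (0.95), BLMH (0.94) and EZR (0.93), the membrane linker ezrin, and the lowest were ZNF704 (-0.96), LRCH2 (-0.95) and MTR (-0.93), methionine synthase. LRCH2 ranged from 4.24 to 7.14 over the arrays. FOXF2 had MMD (0.95), EPAS1 (0.94), the hypoxia-inducible factor HIF-2α, and VAV2 (0.93) at the top and RHBDD1 (-0.91) at the bottom.

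Occludin was most like RIMOC1 (0.97), AVL9 (0.96) and REL (0.96), an NF-kB subunit, and least like PHF23 (-0.96), RPAP1 (-0.96) and BAHD1 (-0.96). The highest for CGNL1 were LINC00624 (0.91) and SEPTIN6 (0.88), and the lowest were ZNF620 (-0.91) and MID2 (-0.87). For FXYD3 they were GAS6 (0.96), a ligand of the TAM receptor kinases, and ERGIC3 (0.94) at the top and CD47 (-0.95), the ligand of SIRPα, at the bottom. None of the 5 genes was among the 5 nearest in either direction of another, and FXYD3, whose mean lay below the median, was not among those searched.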

How the data were processed

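RNA of 12 samples was biotin-labelled and hybridised, per the labels' protocols. The deposited values are log2 signals, which the authors computed by RMA in Affymetrix Expression Console 1.4.1, per the submitters' processing notes. RMA adjusts for background, equalises the arrays' distributions and combines the probes of a probe set, which can shrink differences of dim genes. The build behind the probe sets is not given in the sources used here. Of 53617 probe sets, 16098 had 1 gene symbol in the platform annotation, 0 had several and 37519 are unnamed here. All 16098 matched RefSeq by gene ID and 0 symbols needed updating. Of the 14884 genes, 779 had over 1 probe set, and the one with the highest mean was used. No dim gene was filtered out. With 3 arrays in a group, the number of arrays limits the precision.

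A mean per group was fitted with limma 3.58.1 (lmFit, eBayes, two-sided, 8 residual and 5.60 prior degrees of freedom) in R 4.3.3, and p-values were adjusted over all genes by Benjamini-Hochberg, with genes called below 0.05. The fit was run on simulated data with independent noise in each gene, without the variation that genes share across these arrays. That run checked the estimates of planted differences and cannot show error rates for these data. With 3 arrays on each side, the smallest exact two-sided p is 0.1. Correlations were computed in Python 3.11.15 with SciPy 1.17.1.

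The 5 genes and the 12 gene lists were chosen with earlier results of these data known. Named genes are the 5, KAT8 and ESR1, and up to 5 genes per direction most like each of the 5. Up to 4 genes per list and comparison with the smallest p are named as well. Added after their values were seen were VIM, ZEB1, DCN, LUM, DES, THY1, CD68 and the range of LRCH2. Alternatives were the mean of a gene's probe sets, only genes at or above the median level, a repeated quantile normalization, arrays shifted to 1 median, a mean-variance trend, array weights, a fit to only the groups compared, a replicate block, the sample code's letter as a random block, and each array left out.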

Additional observations from a re-analysis of the deposited data

How the results depend on the processing

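The 25 differences of the 5 genes kept their sign in all 395 alternatives. Many of these could not change an estimate, so their signs were fixed in advance. They were the mean of a gene's probe sets, the filter on dim genes, the mean-variance trend, the fit to only the groups compared and the replicate block. Of the 395 alternatives, 16 passed the threshold. With array quality weights 12 passed, and weights ran from 0.359 for replicate 2 to 8.86 for replicate 3 of shMOF ERα(-). The others were FN1 for ERα(+) against ERα(-) in control with only the groups compared, and FN1, FOXF2 and OCLN in the interaction without replicate 2 of shMOF ERα(-). Against 0 genes called in each comparison, array quality weights called 645 for shMOF against control in ERα(-), 1629 in ERα(+), 217 for ERα(+) against ERα(-) in control, 1918 in shMOF and 3258 for the interaction. With only the groups compared, 9 were called for ERα(+) against ERα(-) in control. A replicate block called 2 in the interaction and 0 elsewhere, and the code letter as a random block 5 in the interaction. Leaving out single arrays gave 0 to 5 calls for shMOF against control in ERα(-), 0 to 1 in ERα(+), 0 to 0 for ERα(+) against ERα(-) in control, 0 to 11 in shMOF and 0 to 570 for the interaction. The counts of 5, 11 and 570 came without replicate 2 of shMOF ERα(-). In the interaction, 11 were called without replicate 1 of shMOF ERα(+). The cause was not tested. The replicate numbers did not pair the samples throughout. After group means were taken out, 5 of 18 same-numbered pairs correlated above 0.1 (from -0.18 to 0.45, median 0.05). Pairs with other numbers had a median of -0.04. The replicate 2 arrays of shMOF ERα(-), control ERα(+) and shMOF ERα(+) correlated with each other at 0.24 to 0.45. With replicate 2 of control ERα(-) they correlated at -0.18 to 0.07. Whether the numbers mark shared cultures was not tested. The filter on dim genes left out FXYD3. Correlations between pairs of the 5 genes over all 12 arrays, and their alternatives, are not given, because the widest gap in FN1 parts the arrays.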
